A study of Mus musculus with 7 samples.

Results

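The deep layers of the cerebral cortex were described through 10 genes that mark their projection neurons, out of 43626 gene identifiers in the table. The genes were chosen by symbol: Bcl11b, Fezf2 and Crym for layer 5, Tbr1, Foxp2, Tle4, Ntsr1, Hs3st4 and Rprm for layer 6, and Nxph4 for layer 6b. All 10 were found, and all 10 passed the minimum of 10 normalized counts in at least 3 libraries. Sequencing covered prefrontal cortex RNA of 8-week-old males of the C57BL/6J strain, in 3 wild-type (WT) libraries and 4 of the genotype written hDISC1AA/+. In the second genotype 1 allele of Disc1, a scaffold gene of neurons, is altered; the study concerns phosphorylation of DISC1 and the polarity of cortical neurons, and the labels name no other allele or treatment in either group. The labels do not say whether each library came from a separate mouse, so p-values here rest on a spread among 7 samples that may be partly technical. A normalized count is the authors' value, reads divided by 1 size factor per library.

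Layer 5 holds the large neurons that send axons to the brainstem and spinal cord, and layer 6 holds neurons that project to the thalamus. During development a small network of transcription factors separates the classes: FEZF2 and its downstream partner BCL11B (CTIP2) direct the subcerebral fate, and TBR1 directs the corticothalamic fate and holds Fezf2 down. Layer 6b, next to the white matter, is a remnant of the subplate. Several of the genes are active elsewhere in the forebrain too. Bcl11b and Foxp2 are expressed in striatal spiny neurons, and Tbr1 in the projection neurons of the olfactory bulb.

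The libraries held 33512557 to 36005116 reads assigned to genes, except WT replicate 1 with 63845254. The fewest reads for a member were 78, for Nxph4 in hDISC1AA/+ replicate 1, for which counting error alone is 11.3% of the value. Cortical glutamatergic markers were high in every library, with 55502 to 78478 normalized counts of the vesicular glutamate transporter gene Slc17a7. Of the hDISC1AA/+ columns, 1 carries a number found in no sample title and is called the unnumbered library. Beyond depth, 2 libraries stood apart. In WT replicate 1 the 12 oligodendrocyte genes summed to 141725 normalized counts, against 40991 to 53004 in the other 6 libraries, and the 10 endothelial genes to 2762, against 9078 to 12174. WT replicate 1 is also titled in a form that no other column shares. The values of hDISC1AA/+ replicate 1 depended on GC content and transcript length, which took up a fraction of 0.358 of the variance of its deviations from the 7-library means and 0.0242 to 0.119 in the other libraries. Mitochondrial genes took 1.94% of its reads, against 5.14% to 6.94% in the other 6 libraries. Results that rest on these libraries are given with and without them.

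The promoter windows of the layer 6 genes Rprm and Ntsr1 are shown as those, of the 7 members with a window, in which the RefSeq start is also the first base of the GENCODE gene. In WT replicate 1 they stood at 1.99 and 1.62 times the mean of the other 2 WT libraries, and Hs3st4 (1.77) and Tle4 (1.25) were high there too. The remaining layer 6 members, Foxp2 (0.68) and Tbr1 (0.92), lay below that mean. The windows are the 250 bases before the RefSeq start on GRCm38.p6, for Rprm at chr2:54085553-54085802 on the minus strand and for Ntsr1 at chr2:180499726-180499975 on the plus strand. Capitals mark a GC box (GGGCGG or CCGCCC).
Rprm: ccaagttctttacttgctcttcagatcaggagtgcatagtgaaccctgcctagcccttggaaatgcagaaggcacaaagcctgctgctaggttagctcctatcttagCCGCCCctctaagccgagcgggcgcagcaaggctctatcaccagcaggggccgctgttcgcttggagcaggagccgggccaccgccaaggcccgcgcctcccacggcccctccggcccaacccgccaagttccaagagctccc
Ntsr1: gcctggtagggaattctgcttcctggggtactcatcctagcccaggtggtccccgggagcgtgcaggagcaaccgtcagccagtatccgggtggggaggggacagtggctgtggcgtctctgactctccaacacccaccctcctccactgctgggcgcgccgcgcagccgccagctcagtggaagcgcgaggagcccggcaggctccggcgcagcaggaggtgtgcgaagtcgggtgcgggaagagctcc
Rprm has 13 CG pairs in its window and Ntsr1 has 18, where the median of 32851 RefSeq windows is 6. RefSeq held windows for 7 members (8 windows, with 2 starts for Tle4), and 7 of the 8 windows had more CG pairs than that median. A GC box stood in 6 of the 8 windows, against 32.7% of all windows. The letters TATAAA or TTTATA were in 0 of the 8 (12.4% of all windows), and the T-box letters GGTGTGA or TCACACC in 0 (3.33%). The letters CCAAT or ATTGG were in 1 (33.8%). Both strands were searched, and none of the motifs contains another. Crym, Foxp2 and Nxph4 were not matched.

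For none of the 10 genes did the difference between the genotypes pass the test against the spread of the libraries. Of 17670 genes tested by limma, 0 passed an adjusted p of 0.05 (0% of all genes), and 0 of the 10 members did. An unadjusted limma p under 0.05 was reached by 1 member, Bcl11b, against 2.44% of all genes. The groups did not overlap for 0 of the 10 members, against 5.04% of all genes. Of the members 8 had a log2 fold change (hDISC1AA/+ minus WT, on log2 of the normalized count plus 1) below 0, as had 52.2% of all genes. The median log2 fold change of the members was -0.12 and that of all genes -0.01. Without WT replicate 1, 5 of the 10 were below 0 and the median was -0.0041. Without hDISC1AA/+ replicate 1, 8 of the 10 were below 0 and the median was -0.19. Without both libraries that stood apart 6 of the 10 were below 0 and the median was -0.04. The tissue was bulk, so fewer cells of a type and less RNA per cell cannot be told apart.

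**Figure D1:**
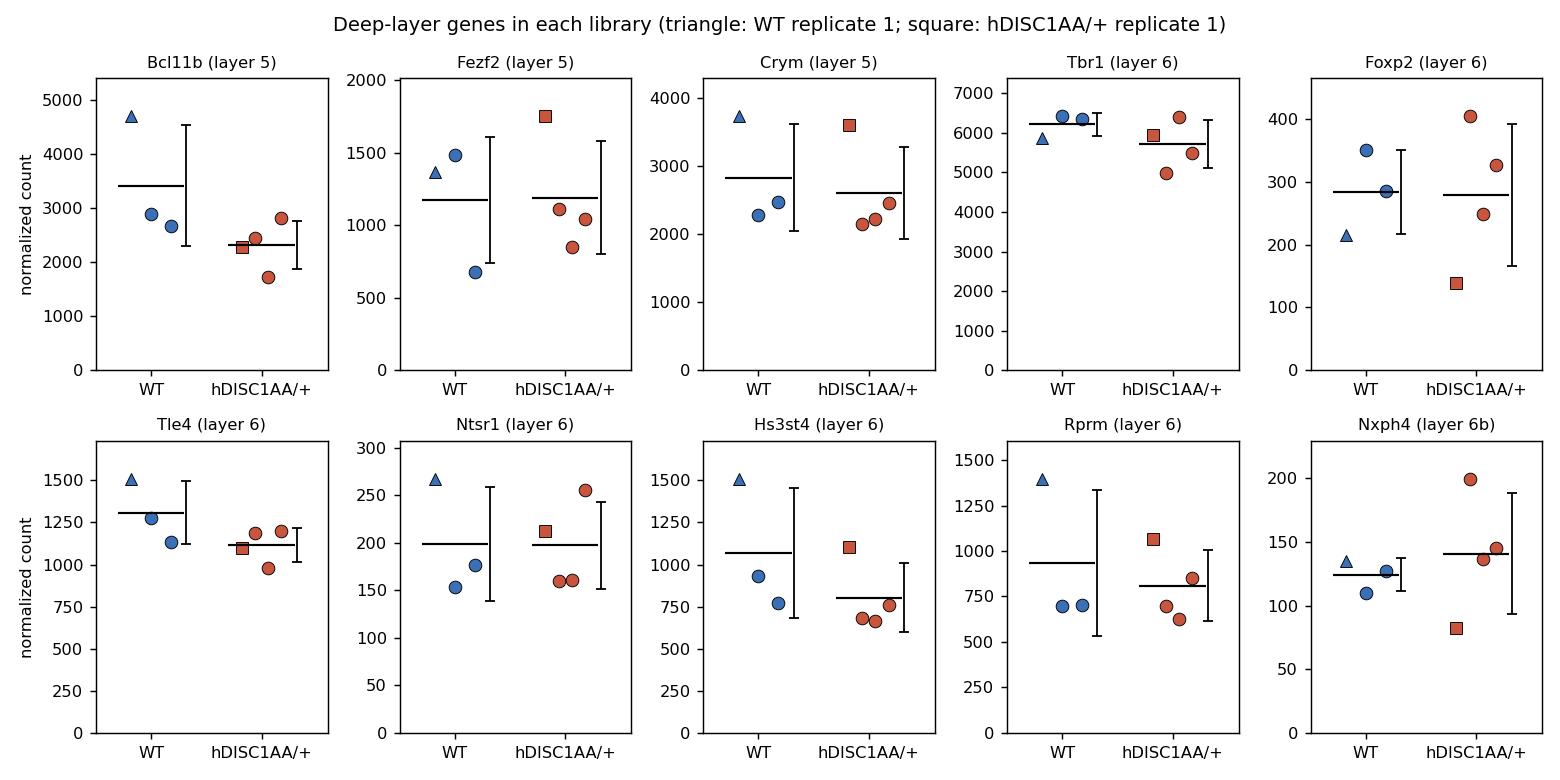
Normalized counts of the 10 genes in each library (y axis from 0), with 3 WT libraries in blue and 4 hDISC1AA/+ libraries in red; lines are group means and bars the SD. The triangle (WT replicate 1) lies highest in 6 of the 10 genes (4975 of all 17670 genes tested), and in every gene the groups overlap.

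Bcl11b, the zinc finger factor that guides the axons of layer 5 subcerebral neurons (ENSMUSG00000048251, chromosome 12, 107910403 to 108003602 of GRCm38, minus strand), showed the largest difference of the 10. Its normalized counts were 4703, 2889 and 2673 in WT replicates 1 to 3. The hDISC1AA/+ libraries had 2283, 1729.8 and 2821 (replicates 1, 3 and 4) and 2451 (unnumbered). The WT libraries were higher on the whole, but hDISC1AA/+ replicate 4 lay above WT replicate 3, and the single high value was WT replicate 1. The means were 3422 ± 1115 (SD, n = 3) and 2321 ± 453.7 (SD, n = 4), and the log2 fold change came to -0.53 (limma adjusted p = 0.974, unadjusted p = 0.0407; 95% CI -1.04 to -0.03). The exact permutation test over 35 divisions gave p = 0.0857, two-sided, where the smallest p it allows is 0.0286. Without WT replicate 1 the log2 fold change was -0.28. WT replicate 1 also held the highest sum of 14 striatal spiny neuron markers, 12633 normalized counts against 9703 to 11642 in the other 6. The list was mixed, since of its 12 tested genes 5 were highest and 2 lowest in WT replicate 1. Among them the dopamine receptor gene Drd1 had 307 normalized counts there and 112 to 183 elsewhere, while the striatal factor genes Six3 and Isl1 were at 6.42 or fewer in every library (each at 0 in at least 3). The part of striatal or white matter tissue in the Bcl11b values was not tested.

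Fezf2, the zinc finger factor that specifies subcerebral neurons upstream of Bcl11b (ENSMUSG00000021743, chromosome 14, 12342094 to 12348189, minus strand), was spread widely within both groups. WT replicates 1 to 3 had normalized counts of 1364, 1485 and 679. For hDISC1AA/+ the values were 1749, 849 and 1043 in replicates 1, 3 and 4 and 1113 in the unnumbered library. The lowest library was thus WT replicate 3 and the highest hDISC1AA/+ replicate 1, each far from others of its own genotype. The means were 1176 ± 434.7 (SD, n = 3) and 1189 ± 390.2 (SD, n = 4), with a log2 fold change of 0.04 (95% CI -0.69 to 0.77; limma adjusted p = 0.998). Its sign turned to -0.31 without WT replicate 3 and to -0.16 without hDISC1AA/+ replicate 1. In hDISC1AA/+ replicate 1, Fezf2 deviated by 0.63 from its mean of 7 libraries on the log2 scale and Bcl11b by -0.23. After correction of each library for GC content and transcript length these were 0.40 and -0.27. In WT replicate 3 the corrected deviations were -0.71 for Fezf2 and -0.05 for Bcl11b, so the pair lay about as far apart there, in the other direction.

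Crym, which encodes the thyroid hormone binding protein mu-crystallin (ENSMUSG00000030905, chromosome 7, 120186380 to 120202111, minus strand), was nearly constant in 5 libraries and high in 2. The high values were 3731 normalized counts in WT replicate 1 and 3602 in hDISC1AA/+ replicate 1. The other WT libraries had 2286 and 2469, and the other hDISC1AA/+ libraries 2230.2 and 2455 (replicates 3 and 4) and 2149.8 (unnumbered). Each genotype thus held 1 of the high values. Crym had a log2 fold change of -0.11 (limma adjusted p = 0.987, 95% CI -0.61 to 0.39). It was 0.10 without WT replicate 1, -0.28 without hDISC1AA/+ replicate 1 and -0.063 without both. The SD of log2 values fell from 0.33 over 7 libraries to 0.09 over the 5 without those 2, the smallest spread of the 10 genes in that subset. The subset leaves out the 2 highest values of Crym, so a fall was fixed in advance.

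Tbr1, the T-box factor of layer 6 corticothalamic neurons (ENSMUSG00000035033, chromosome 2, 61802930 to 61814114, plus strand), was the steadiest member over all 7 libraries and, per kilobase, the most abundant. It had normalized counts of 5882, 6414 and 6350.0 in WT replicates 1 to 3. Replicates 1, 3 and 4 of hDISC1AA/+ had 5938, 6412 and 5501, and the unnumbered library had 4988. The 2 lowest libraries were hDISC1AA/+, but replicate 3 of that genotype was among the 3 highest. Between the genotypes Tbr1 differed by a log2 fold change of -0.13 (limma adjusted p = 0.974; 95% CI -0.37 to 0.11), which lay between -0.19 and -0.06 with any single library left out. WT replicate 1 was not high in Tbr1, with a log2 deviation of -0.01, although it was the highest library for 4 of the other 5 layer 6 members.

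Tle4, a Groucho corepressor of corticothalamic neurons (ENSMUSG00000024642, chromosome 19, 14448150 to 14598051, minus strand), was measured at 1507, 1278 and 1137 normalized counts in WT. Its hDISC1AA/+ values were 1098, 980.3 and 1202 in replicates 1, 3 and 4 and 1188 in the unnumbered library. WT held the 2 highest values, and the third WT value lay inside the range of the other genotype. The means were 1307 ± 186.9 (SD, n = 3) and 1117 ± 102.0 (SD, n = 4), with a log2 fold change of -0.22 (95% CI -0.51 to 0.07; limma adjusted p = 0.974). It was -0.11 without WT replicate 1. For Tbr1, Tle4 and Ntsr1 the 95% CI lay within 1.5-fold in either direction (3 of 10 members, and 54.0% of all genes), and for 9 members, all except Bcl11b, within 2-fold (77.4% of all genes).

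Foxp2, a forkhead factor of layer 6 (ENSMUSG00000029563, chromosome 6, 14901349 to 15441977, plus strand), had the widest range of the members, with the highest library at 2.91 times the lowest. Foxp2 had normalized counts of 216, 350.3 and 286 in WT replicates 1 to 3. The hDISC1AA/+ values were 139, 249 and 326 (replicates 1, 3 and 4) and 404 (unnumbered). The highest and the lowest library were both hDISC1AA/+. The genotypes differed by a log2 fold change of -0.10 (limma adjusted p = 0.998; 95% CI -0.88 to 0.68), or 0.20 without hDISC1AA/+ replicate 1. Markers of the olfactory bulb, which lies in front of the dissected tissue, varied over the same libraries. All 10 of them were highest in the unnumbered library and lowest in hDISC1AA/+ replicate 1, with sums of 14414 and 2680.3 normalized counts. In WT they summed to 4119 to 9731, lowest in WT replicate 1, and none was at 0 in any library. The 3 libraries highest in Foxp2 were also the 3 with the highest olfactory bulb sums. They were the unnumbered library, WT replicate 2 and hDISC1AA/+ replicate 4. Tbr1, itself expressed in the olfactory bulb, was lowest in the unnumbered library, at 4988 normalized counts. Thalamic neuron markers also had their highest sum in the unnumbered library (10078) and their lowest in hDISC1AA/+ replicate 1 (4413). The part of olfactory bulb or thalamic tissue in the Foxp2 values was not tested.

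Ntsr1, a neurotensin receptor used as a marker of corticothalamic neurons (ENSMUSG00000027568, chromosome 2, 180499976 to 180544980, plus strand), had nearly equal group means, 199 ± 59.9 (SD, n = 3) normalized counts in WT and 197 ± 45.7 (SD, n = 4) in hDISC1AA/+. The WT libraries had 267, 154 and 177. Those of hDISC1AA/+ had 213, 161 and 255 (replicates 1, 3 and 4) and 159.9 (unnumbered). Each genotype had both high and low libraries. Its log2 fold change was -0.0012 (limma unadjusted p = 0.996; 95% CI -0.56 to 0.55), and it was 0.056 with upper quartile scaling and 0.23 without WT replicate 1.

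Hs3st4, a heparan sulfate sulfotransferase of layer 6 (ENSMUSG00000078591, chromosome 7, 123982869 to 124398989, plus strand), was measured at 1507, 929.8 and 774 normalized counts in WT. Of hDISC1AA/+, replicates 1, 3 and 4 had 1105, 662 and 762 and the unnumbered library 682. The highest library was WT replicate 1, followed by hDISC1AA/+ replicate 1, and the other 3 hDISC1AA/+ libraries lay below every WT library. This gave a log2 fold change of -0.39 (limma adjusted p = 0.974; 95% CI -0.96 to 0.19), the largest in size among layer 6 and 6b members. It was -0.11 without WT replicate 1, -0.55 without hDISC1AA/+ replicate 1 and -0.28 without both libraries that stood apart. An antisense gene, Gm27040, overlaps its exons with a mean of 7.86 reads per library, and without strand information the reads of the pair cannot be told apart.

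Rprm, a cell cycle arrest gene that marks layer 6 (ENSMUSG00000075334, chromosome 2, 54084093 to 54085552, minus strand), was measured at 1395, 697 and 705 normalized counts in WT. The other genotype had 1065, 627 and 849.7 (replicates 1, 3 and 4) and 695 (unnumbered). WT replicate 1 and hDISC1AA/+ replicate 1 were again the 2 highest. Rprm had a log2 fold change of -0.15 (limma adjusted p = 0.986, 95% CI -0.78 to 0.47). It was 0.18 without WT replicate 1, -0.30 without hDISC1AA/+ replicate 1 and 0.035 without both. With Crym, these genes form a group of 3 in which the same 2 libraries ranked highest. After correction of each library for GC content and transcript length, the log2 deviation of hDISC1AA/+ replicate 1 went from 0.33 to 0.08 in Hs3st4, from 0.36 to 0.13 in Rprm and from 0.45 to 0.39 in Crym. The corresponding deviation of WT replicate 1 was 0.77 and 0.78 in Hs3st4, 0.75 and 0.69 in Rprm, and 0.50 and 0.52 in Crym.

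Nxph4, a neurexophilin that binds neurexins and marks layer 6b (ENSMUSG00000040258, chromosome 10, 127525473 to 127534559, minus strand), was tight in WT and wide in hDISC1AA/+. In WT it had normalized counts of 135, 110.2 and 128. Under hDISC1AA/+ it had 82.5, 136 and 145 in replicates 1, 3 and 4 and 199 in the unnumbered library. As in Foxp2, the highest and lowest libraries were the unnumbered library and hDISC1AA/+ replicate 1. Nxph4 differed by a log2 fold change of 0.12 (limma adjusted p = 0.995; 95% CI -0.52 to 0.75), which turned to -0.073 without the unnumbered library. After the GC and length correction the deviation of hDISC1AA/+ replicate 1 went from -0.65 to -0.96 in Nxph4 and from -0.94 to -0.67 in Foxp2, which have the highest (61.4%) and the lowest (42.6%) GC content of the 10 longest transcripts.

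**Figure D2:**
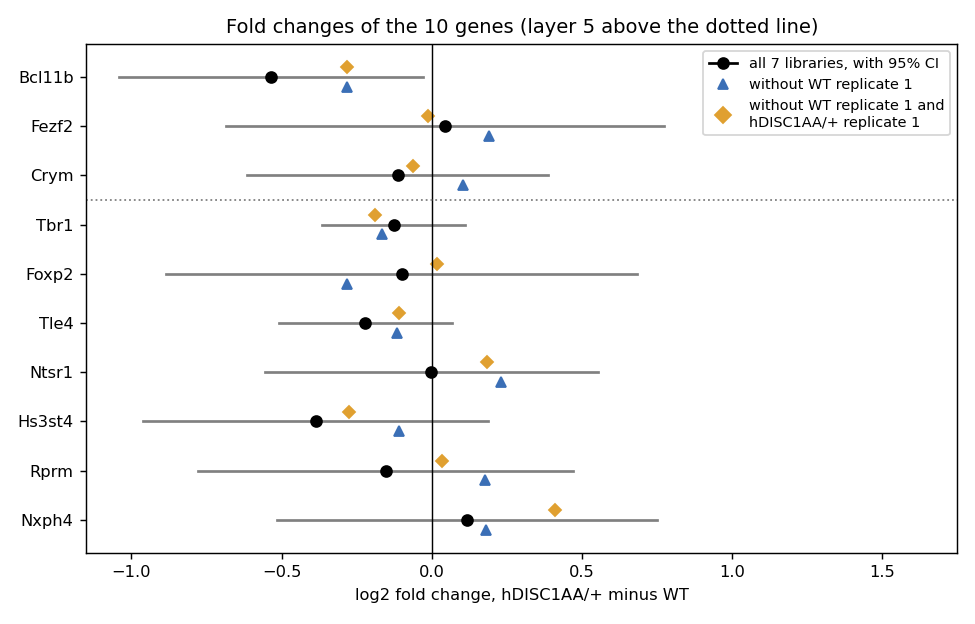
Log2 fold changes of the 10 genes, hDISC1AA/+ minus WT (x axis), with the limma 95% CI over all 7 libraries and the values without WT replicate 1 (triangles) or without both libraries that stood apart (diamonds). The interval of Bcl11b alone lies below 0 (unadjusted), and its value moves from -0.53 to -0.28 without WT replicate 1.

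Per kilobase of merged GENCODE exons, the members covered a wide range of levels. The mean normalized count per kilobase over 7 libraries was 1080.3 for Tbr1, 797 for Crym and 590.5 for Rprm. It was 388 for Fezf2, 344 for Bcl11b, 288 for Hs3st4 and 210.2 for Tle4. The lowest levels were 79.9 for Nxph4, 50.6 for Ntsr1 and 17.2 for Foxp2. Neighbours in this order overlapped in their range over libraries in every step except 2, as Tbr1 (909 to 1169) and Crym (634 to 1100.2) did. The range of Nxph4 (49.3 to 119) lay wholly below that of Tle4 (172 to 264), and that of Foxp2 (8.48 to 24.7) wholly below that of Ntsr1 (39.3 to 68.2). The merged exons of Foxp2 span 16346 bases against 6760 for its longest transcript, so its level per kilobase is low in part by construction.

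The comparison of layer 5 with layer 6 and 6b members gave close values. The median log2 fold change was -0.11 for the 3 layer 5 members and -0.13 for the 7 layer 6 and 6b members, a difference of 0.01. Of the layer 5 members 2 of 3 were below 0 and of the layer 6 and 6b members 6 of 7. The medians were 0.10 and -0.11 without WT replicate 1, with 1 of 3 and 4 of 7 members below 0. They were -0.28 and -0.15 without hDISC1AA/+ replicate 1, with 3 of 3 and 5 of 7 below 0. Without both libraries that stood apart they were -0.063 and 0.018, with 3 of 3 and 3 of 7 below 0. With single libraries left out the difference between the medians ranged from -0.20 to 0.21. Since the genes were chosen with results of these data known, no test was made of these medians.

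Within libraries the layers did differ in places. The mean log2 deviation of the layer 5 genes from their mean of 7 libraries was 0.53, 0.10 and -0.28 in WT replicates 1 to 3. The hDISC1AA/+ libraries were at 0.28, -0.43 and -0.05 (replicates 1, 3 and 4) and at -0.15 (unnumbered). Each genotype thus had libraries at both ends. The layer 6 and 6b genes spanned less, with 0.30, -0.02 and -0.06 in WT and with -0.13, -0.18, 0.08 and 0.0092 in the same order of hDISC1AA/+ libraries. In hDISC1AA/+ replicate 1 both groups were split. Fezf2 (0.63) and Crym (0.45) lay above 0 and Bcl11b (-0.23) below. Rprm (0.36), Hs3st4 (0.33), Ntsr1 (0.14) and Tbr1 (0.01) lay above 0, and Foxp2 (-0.94), Nxph4 (-0.65) and Tle4 (-0.12) below. The median of these uncorrected layer 6 and 6b values was 0.0081. After the GC and length correction only Rprm (0.13) and Hs3st4 (0.08) lay above 0. Ntsr1 (-0.09), Tle4 (-0.13), Tbr1 (-0.16), Foxp2 (-0.67) and Nxph4 (-0.96) then lay below. Layer 5 minus layer 6 and 6b was highest in hDISC1AA/+ replicate 1, at 0.41, and lay between -0.25 and -0.13 in the other 3 hDISC1AA/+ libraries. In WT it was 0.23, 0.12 and -0.21. The group means of this difference were 0.04 ± 0.23 (SD, n = 3) in WT and -0.03 ± 0.30 (SD, n = 4) in hDISC1AA/+, a difference of -0.077. Without the 2 libraries that stood apart they were -0.05 ± 0.23 (SD, n = 2) and -0.18 ± 0.061 (SD, n = 3), a difference of -0.13. Both differences were smaller in size than the SD of the WT libraries, which in the second case rests on 2 libraries. The second was larger in size than the SD of the 3 hDISC1AA/+ libraries (0.061).

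**Figure D3:**
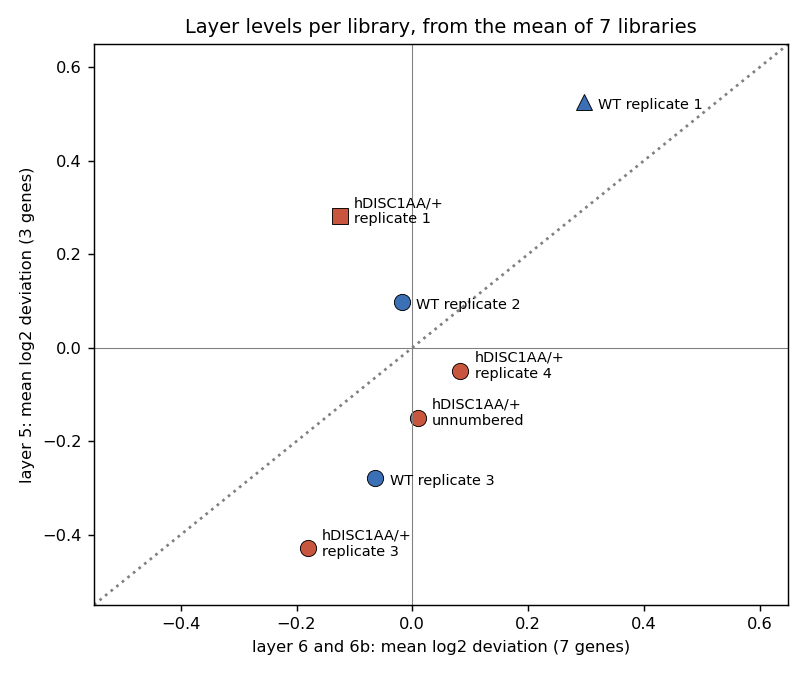
Mean log2 deviation of the 3 layer 5 genes (y axis) against that of the 7 layer 6 and 6b genes (x axis) in each library, from the mean of 7 libraries; the dotted line marks equal values. WT replicate 1 is highest on both axes (0.30 and 0.53). For hDISC1AA/+ replicate 1 the mean is 0.28 for layer 5 and -0.13 for layer 6 and 6b, with genes in both directions in each group.

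Further genes of the same layers were read from the same fit. Of 20 further layer 5 genes 19 were tested, with 12 lower and 7 higher in hDISC1AA/+ and 0 past the threshold (median log2 fold change -0.12). For these genes the median was -0.042 without WT replicate 1, -0.041 without both libraries that stood apart and -0.17 without WT replicate 3. Of these Pcp4, which encodes a calmodulin-binding peptide, reached 521 normalized counts in WT replicate 1, while the other 6 libraries had 2.12 to 24.9. Its log2 fold change of -2.19 (95% CI -5.20 to 0.83) was -0.49 without WT replicate 1 and 0.11 without both libraries that stood apart. The other layer 5 genes with the smallest p were the POU factor gene Pou3f1 (0.33) and the natriuretic peptide receptor gene Npr3 (-0.31). Pou3f1 was lowest in WT replicate 1 and highest in hDISC1AA/+ replicate 1, and its log2 fold change was 0.18 without the first, 0.17 without the second and 0.017 without both. Of 20 further layer 6 and 6b genes 14 were lower and 6 higher, with 0 past the threshold (median -0.05). Without both libraries that stood apart 8 of the 20 were lower and the median was 0.062, and without WT replicate 3 it was -0.16. Lmo3, a LIM-only cofactor, stood at 8801 normalized counts in WT replicate 1, against 2237 to 4303 elsewhere (log2 fold change -0.80, and -0.37 without WT replicate 1). Col5a1, a collagen gene, was lowest in WT replicate 1, at 139 normalized counts, where the other 6 libraries ranged from 314 to 815. Its log2 fold change was 0.74, and 0.16 without WT replicate 1. The nuclear receptor gene Nr4a2 was at -0.38, and at -0.078 without WT replicate 1 and 0.074 without both libraries.

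The regulators around the members were 21 transcription factors and cofactors of projection neuron identity. Of these 11 were lower and 10 higher in hDISC1AA/+, 0 passed, and the median was -0.02. Without both libraries that stood apart 15 of the 21 were lower and the median was -0.058. Bcl11a, the paralog of Bcl11b (CTIP1), had 3336 to 3536 normalized counts in WT and 2824 to 3227 in hDISC1AA/+, without overlap (log2 fold change -0.17; limma adjusted p = 0.974). Groups lay apart with hDISC1AA/+ lower in 2 of the 21, Bcl11a and Tcf4 (-0.26), against 2.84% of all genes. The nuclear receptor gene Nr2f1 was at 0.22. The 15 upper-layer genes had 8 lower and 7 higher and a median of -0.0060, none past the threshold. Without both libraries that stood apart 11 of the 15 were lower and the median was -0.025. Plcxd2 was at -0.35, Otof at 0.49 (0.18 without WT replicate 1) and Wfs1 at 0.27. Among these 15, the groups lay apart with hDISC1AA/+ lower in 1, Plcxd2, against 2.84% of all genes, and with hDISC1AA/+ higher in 1, Otof, against 2.2%. Of 10 genes common to glutamatergic neurons 7 were lower and 3 higher in hDISC1AA/+, with 0 past the threshold (median -0.02). The groups lay apart with hDISC1AA/+ lower in 1 of them, against 2.84% of all genes. Without WT replicate 1, 4 of the 10 were lower, without hDISC1AA/+ replicate 1 all 10, and without both 9. These 10 genes summed to 378955 to 443573 normalized counts in WT and 353323 to 456378 in hDISC1AA/+. By this sum WT replicate 1 was not the highest of the 7. By the mean log2 deviation of these genes it was the highest, at 0.13, followed by hDISC1AA/+ replicate 1 at 0.12.

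**Figure D4:**
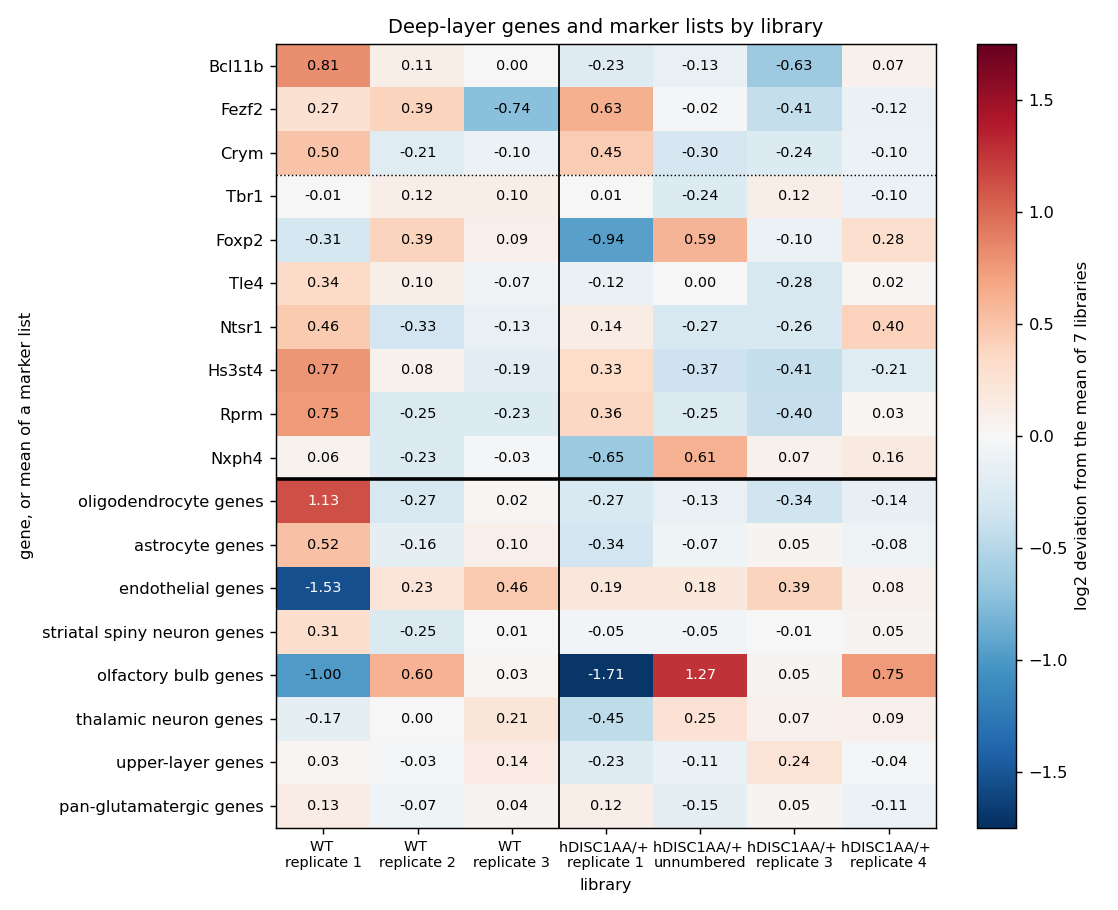
Log2 deviation from the mean of 7 libraries (color and number) for each of the 10 genes, above the thick line, and for the mean of marker lists, below it, with libraries in columns. WT replicate 1 is high in Bcl11b (0.81), Hs3st4 (0.77), Rprm (0.75) and the oligodendrocyte list (1.13), and Foxp2 is lowest in hDISC1AA/+ replicate 1 (-0.94), as is the olfactory bulb list (-1.71).

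The deviation of WT replicate 1 from the mean of 7 libraries was 0.37 on the log2 scale over the 10 members, 1.13 over the oligodendrocyte list, 0.52 over the astrocyte list and -1.53 over the endothelial list. It was 0.03 over the upper-layer list (median -0.08), in which WT replicate 1 was highest for 4 and lowest for 5 of the 15 genes. WT replicate 1 was the highest library for 6 and the lowest for 0 of the 10 members. Over all 17670 genes tested it was the highest for 4975 and the lowest for 4384. It was also the highest for 11 of 12 oligodendrocyte genes and for 9 of 10 astrocyte genes. The share of these other cell types in the deep-layer values was not tested.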

How the data were processed

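The 7 libraries were 3 WT and 4 hDISC1AA/+ from prefrontal cortex, grouped by the genotype label. The authors deposited 1 signal per gene and library. Within each column all values above 0 were whole multiples of 1 step (100% within 0.01 reads), so the deposited values are read counts divided by 1 size factor, and division by the step gave back the reads. HTSeq 0.6.1, HISAT2 2.1.0, DESeq2 1.26.0, Trimmomatic 0.39 and the build mm10 are named per the submitters' processing notes, with no role or order. Annotation and strand setting: not given in the sources used here. For 3 genes identifier and values stood on separate lines and were left out (0.012% to 0.0169% of the values). Of 43626 identifiers 42545 matched GENCODE M21 (GRCm38), the source of symbols and coordinates.

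The 17670 genes that reached 10 in 3 or more libraries were tested with limma 3.58.1 (R 4.3.3) on log2(value + 1), with trend and robust variances, two-sided, Benjamini-Hochberg adjusted over all genes, at 0.05. The log2 scale understates changes of low counts. On the recovered reads edgeR 4.0.16 and DESeq2 1.42.0 were alternatives. The calculation was tested on simulated counts. Genes named beyond the members were the up to 3 with the smallest p of each list described. The members and lists were chosen with earlier results of these data known. All sequences are from RefSeq on GRCm38.p6.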

Additional observations from a re-analysis of the deposited data

How the results depend on the processing

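Over 17 alternatives (pseudocounts of 0.1 and 5, no minimum or a minimum of 50, edgeR, DESeq2, upper quartile scaling, array weights, each library or both deviating libraries left out, and a GC content and transcript length correction) 0 genes and 0 members passed the threshold. At an unadjusted p under 0.05 there were 431 genes with limma, 452 with edgeR and 604 with DESeq2, but 1823 with array weights, where the lowest adjusted p of a member was 0.541. No paired analysis was possible because the labels give no replicate numbers, and those used here only name the libraries.

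Bcl11b, Tbr1, Tle4 and Hs3st4 were below 0 in every alternative, and the other 6 members changed sign in at least 1. Upper quartile scaling put Ntsr1 at 0.056. Array weights put Foxp2 at 0.025, Ntsr1 at 0.095 and Rprm at 0.012. Without both deviating libraries Fezf2 was at -0.013, Foxp2 at 0.018, Ntsr1 at 0.18 and Rprm at 0.035. The GC and length correction, over 17543 genes with an annotation, put Fezf2 at -0.020 and Foxp2 at 0.037. With single libraries left out the log2 fold change ranged from -0.31 to 0.25 in Fezf2, -0.28 to 0.10 in Crym, -0.31 to 0.20 in Foxp2, -0.17 to 0.23 in Ntsr1, -0.32 to 0.18 in Rprm and -0.073 to 0.35 in Nxph4. These fits have fewer libraries; the cause of the other sign changes was not tested. Counting error was at most 11.3% of a member's count, and the 95% CI reached beyond 1.5-fold for 7 of the members.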
